A study of Coprinopsis cinerea with 10 samples.

Results

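The transcripts of 42 genes for meiosis, recombination, chromosome cohesion and condensation, and spore formation were followed through fruiting of the ink cap mushroom Coprinopsis cinerea, out of 13320 genes on the array. The genes were taken by words in the product names of the array's annotation, not by their expression: a product had to contain a word such as meiosis, recombination, spore, Spo11, MutS, MRE11, cohesin, condensin or SMC, or a RAD or MSH name with a number, and no kinase or ubiquitin. By product they fell into 3 genes for the formation and processing of DNA breaks, 5 for strand exchange, 6 of the MutS family, 6 for cohesin, 7 for condensin and the Smc5-6 complex, 8 other repair genes, and 4 named for meiotic induction or spores. The remaining 3 were set apart as caught by a word: a lincomycin-condensing protein, a Jkappa recombination signal binding protein and an aldehyde dehydrogenase. The last has meiotic sister-chromatid recombination in its product name, so setting it apart was a judgement.

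Total RNA of 5 stages was labelled with Cy3 and hybridised to 10 one-colour NimbleGen arrays, 2 biological replicates a stage. Vegetative mycelium was followed by fruiting initials with a height near 2 mm, by stage 2 primordia of 1 cm and young fruiting bodies of 2 cm, and last by the opened cap of mature bodies that stood 4 cm high. All came from 1 dikaryotic strain, 50% Okayama-7 by origin and backcrossed for 5 generations to that sequenced monokaryon, of which it kept about 98.44% homology. Mycelium grew at 37 °C, with 5 plates pooled per replicate; the fruiting stages were kept at 25 °C, with 12 h of light alternating with 12 h of dark, and 4 to 5 structures made up a replicate. Between mycelium and the fruiting stages, temperature, the kind of pool and any difference in light cannot be told apart from stage. The mature sample was cap alone while the earlier fruiting samples were whole structures, so tissue and stage cannot be told apart at the last step. In these bulk samples fewer cells of a type and less RNA per cell cannot be told apart either.

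In mushrooms the paired nuclei of the dikaryon fuse in the basidia, the club-shaped cells that line the gills of the cap, and go straight into meiosis. Spo11 cuts the DNA, the Mre11-Rad50 complex trims the ends, recombinases pair the broken strand with its homolog, and MutS proteins take part in crossing over or correct mismatches. Cohesin holds sister chromatids together and condensin compacts them; both also serve mitosis. The ink cap is known for carrying its basidia through meiosis almost in step before the cap opens and dissolves to shed the spores.

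Median intensities per array lay between 3268 and 3403 units. A gene was taken as under the detection floor in a stage when neither array exceeded 4 times the level of its random-sequence control probes, which put the floors at 89.4 to 117 units. Of the 42 genes, 1 was under it in mycelium and 1 in mature caps (2.38% each, against 14.2% and 15.3% of all genes), and 0 in the other 3 stages. The replicates of mycelium, initials and young fruiting bodies differed by 1.05, 1.08 and 1.16 times the noise expected from the 2 probe blocks within an array, against 1.38 times for primordia and 1.26 times for caps. A single slide carried the 10 arrays, placed by stage, and position on it cannot be told apart from stage. Galectin-1 (CC1G_05003) and galectin-2, fruiting body lectins, were used to check the labels. Galectin-1 was higher in initials than in mycelium by 2.22 ± 0.0626 on the log2 scale, but in mature caps it was below mycelium, at -2.27 ± 0.0626. Galectin-2 was higher in initials by only 0.58 ± 0.0532. Neither was near the floor in mycelium, where their log2 means were 11.64 for galectin-1 and 13.98 for galectin-2. Changes are given as log2 differences ± SE (limma, n = 2 arrays in each stage), and a change passed at a Benjamini-Hochberg adjusted p under 0.05 over all 13320 genes.

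More of the genes rose than fell at each step up to the young fruiting body, and most fell in the mature cap. Of the 42 genes, 21 (50.0%) had their highest stage mean in young fruiting bodies, against 18.0% of all genes, and 23 (54.8%) their lowest in mature caps, against 32.0%. From initials to primordia 24 rose (57.1%, against 23.5% of all genes) and 6 fell (24.5% of all genes fell). From young fruiting bodies to mature caps 35 fell (83.3%, against 40.7% of all genes) and 6 rose (38.3% of all genes rose), and the median change was -0.99, against 0.02 for all genes. In total 22 genes (52.4%) both rose from initials to primordia and fell from young fruiting bodies to caps, against 13.8% of all genes; these comparisons share no arrays. The arrays of mycelium, initials and young fruiting bodies differed little beyond block noise, and with each of these pairs averaged to 1 sample (averaged pairs) that number was 12, against 3.66% of all genes. The ratio of a gene's highest to its lowest stage mean had a median of 2.58 for the 42 genes and of 1.92 for all genes.

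**Figure D1:**
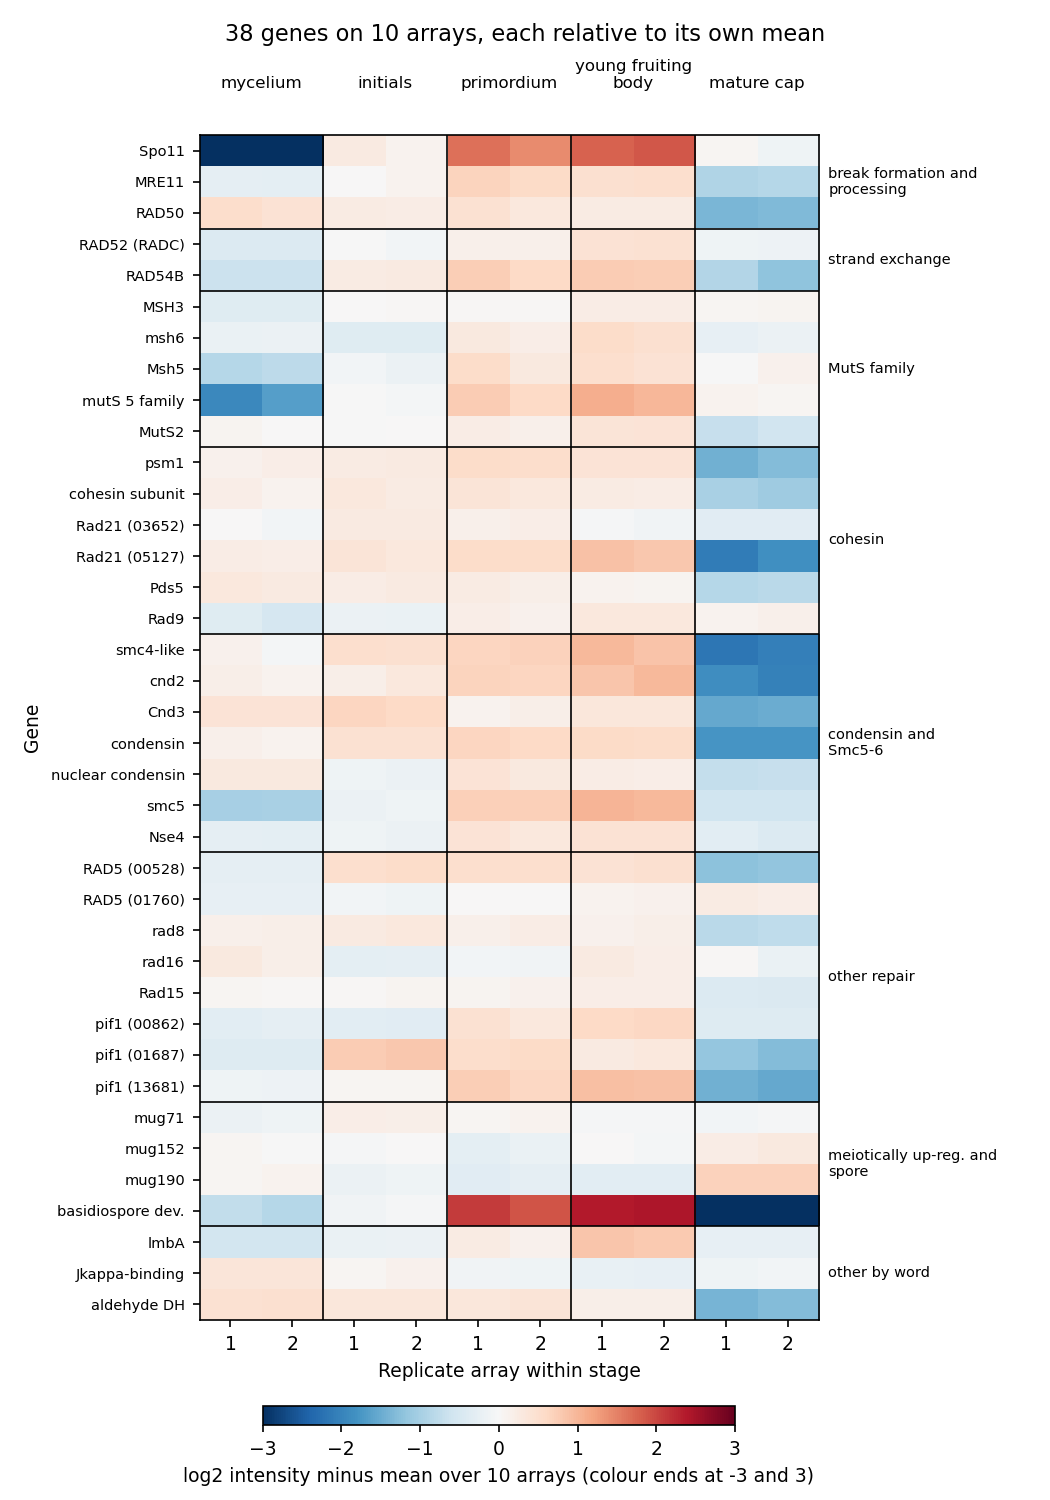
Log2 intensity of 38 of the 42 genes (rows, grouped by role) on the 10 arrays (columns, 2 replicate arrays per stage), each relative to the gene's own mean over the 10 arrays; red is above that mean and blue below, and the colour ends at -3 and 3. Spo11 and the basidiospore development protein show wide ranges, and most of the cohesin and condensin rows turn blue only in the mature cap.

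Mycelium and initials differed in 33 of the 42 genes, of which 24 were higher in initials (57.1%, against 37.5% of all genes) and 9 lower (33.7% of all genes were lower). The median change was 0.18, against 0.02 for all genes. Changes of at least 2-fold were 4 rises and 0 falls (9.01% and 10.9% of all genes), the rises including Spo11, the mutS 5 family protein and 1 pif1 helicase. At the next step, into primordia, 4 genes rose at least 2-fold (2.23% of all genes) and 0 fell (1.72%), the rises including Spo11 and the basidiospore development protein. The median change there was 0.19, against 0.0031 for all genes. Without replicate 2 of the initials, 3 genes fell at this step in place of 6 (17.3% of all genes). With averaged pairs 13 genes rose in place of 24 and 1 fell, against 6.29% and 6.35% of all genes.

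Changes in these genes were small from the primordium to the young fruiting body. There 19 genes rose (24.0% of all genes did) and 7 fell (24.8%), 0 of them by at least 2-fold in either direction (2.58% and 1.99% of all genes). Most counts at this step were lower with 1 array left out, and so were the shares of all genes. Without replicate 2 of the primordium 12 genes rose (19.4% of all genes), and without replicate 1 of the young fruiting body also 12 (17.9%). Without replicate 1 of the primordium 4 fell (22.0% of all genes), and 3 fell without replicate 1 (17.5%) or without replicate 2 (18.2%) of the young fruiting body. With averaged pairs 4 genes rose and 0 fell, against 8.80% and 8.24% of all genes.

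At the last step 21 genes fell at least 2-fold (14.8% of all genes did) and 1 rose (12.3%), mug190. Set against mycelium, where the cycle starts, mature caps had 16 genes higher (38.1%, against 40.7% of all genes) and 23 lower (54.8%, against 40.0%), with a median change of -0.35, against 0.03 for all genes. By fitted change, 4 were higher and 12 lower by at least 2-fold (14.8% and 17.0% of all genes); the 12 include the basidiospore development protein, which is under the floor in caps and for which the floor shows a fall of at least 1.99-fold. This comparison and the last step share the cap arrays. Galectin-1 changed at the last step by -3.97 ± 0.0626 and galectin-2 (CC1G_05005) by -1.61 ± 0.0532; whether the loss of these fruiting body markers bears on the falls was not tested.

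**Figure D2:**
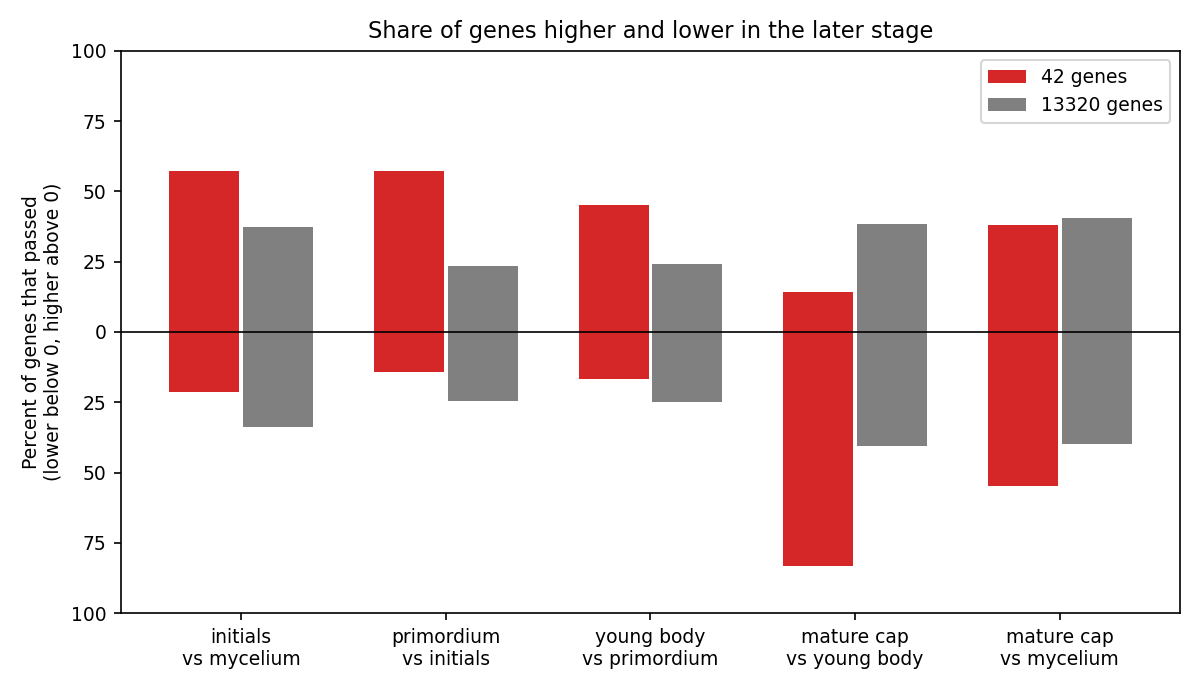
Percent of genes that passed the test in each comparison, for the 42 genes (red) and all 13320 genes (grey); bars above 0 are genes higher in the later stage and bars below 0 genes lower. The red bars reach 83.3% on the lower side for mature cap against young fruiting body, where the grey bar reaches 40.7%.

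Spo11 (CC1G_03320), the topoisomerase-like protein that makes the meiotic breaks, went from under the floor to well above it. Its intensity was 74.4 and 75.7 in mycelium, 1024 and 919.7 in initials, 2691 and 2255 in primordia, 2900.0 and 3106 in young fruiting bodies and 879.6 and 772 in mature caps. Both mycelium arrays were under the floor, the primordium and young body arrays were the highest with no overlap with the initials or the caps, and the cap arrays lay just below those of the initials. It was at least 9.85-fold higher in initials than in mycelium (adjusted p = 1.80e-07), then rose into primordia by 1.34 ± 0.104 and fell into caps by 1.86 ± 0.104 (adjusted p = 2.88e-06). Between primordia and young bodies the difference was 0.28 ± 0.104 (adjusted p = 0.0597), which did not pass. Caps were still at least 8.36-fold above mycelium.

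The partners that trim the breaks were present throughout. MRE11 (CC1G_10319), a nuclease, had intensities of 2969 and 2896 in mycelium, 3625 and 3820.0 in initials, 5669 and 5289 in primordia, 4999.6 and 5097 in young fruiting bodies and 1899.6 and 1964 in mature caps. Its primordium and young body arrays were all above the rest and its cap arrays the lowest of all. It changed by 0.34 ± 0.0450 into initials, 0.56 ± 0.0450 into primordia and -1.39 ± 0.0450 into caps, where it ended -0.60 ± 0.0450 against mycelium. RAD50 (CC1G_03010), the ATPase of the same complex, ranged less before the cap: 5804 and 5426 in mycelium, 4779 and 4723 in initials, 5526 and 5076 in primordia, 4810.1 and 4822 in young fruiting bodies and 1571 and 1621 in mature caps. The cap arrays alone stood apart, at -1.59 ± 0.0503 against young bodies and -1.81 ± 0.0503 against mycelium (adjusted p = 6.82e-08). Spo11 thus ended above its mycelium level while MRE11 and RAD50 ended below theirs.

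Of the 5 strand exchange genes, 4 fell in the cap and 1 rose (40.7% and 38.3% of all genes). RAD54B (CC1G_14217), of the translocases that act in strand exchange, had intensities of 2217 and 2242 in mycelium, 4109 and 4189 in initials, 5783 and 5302 in primordia, 5940.3 and 5841 in young fruiting bodies and 1898 and 1520.0 in mature caps. Mycelium and caps were low, initials intermediate, and primordia and young bodies highest. It rose into initials by 0.90 ± 0.0982, and it fell into caps by 1.79 ± 0.0982 (adjusted p = 2.65e-06). The difference into primordia, 0.42 ± 0.0982, lost its call without replicate 1, or without replicate 2, of the initials, without replicate 1 of the primordium, on probe block 2 alone and with averaged pairs. RAD52 (CC1G_07736), which in yeast helps single strands to anneal, moved less, with stage means from 3391 units in mycelium to 6129.9 in young bodies. Its changes were 0.36 ± 0.0349, 0.19 ± 0.0349, 0.31 ± 0.0349 and -0.59 ± 0.0349 over the 4 steps, of which the second was lost with averaged pairs.

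**Figure D3:**
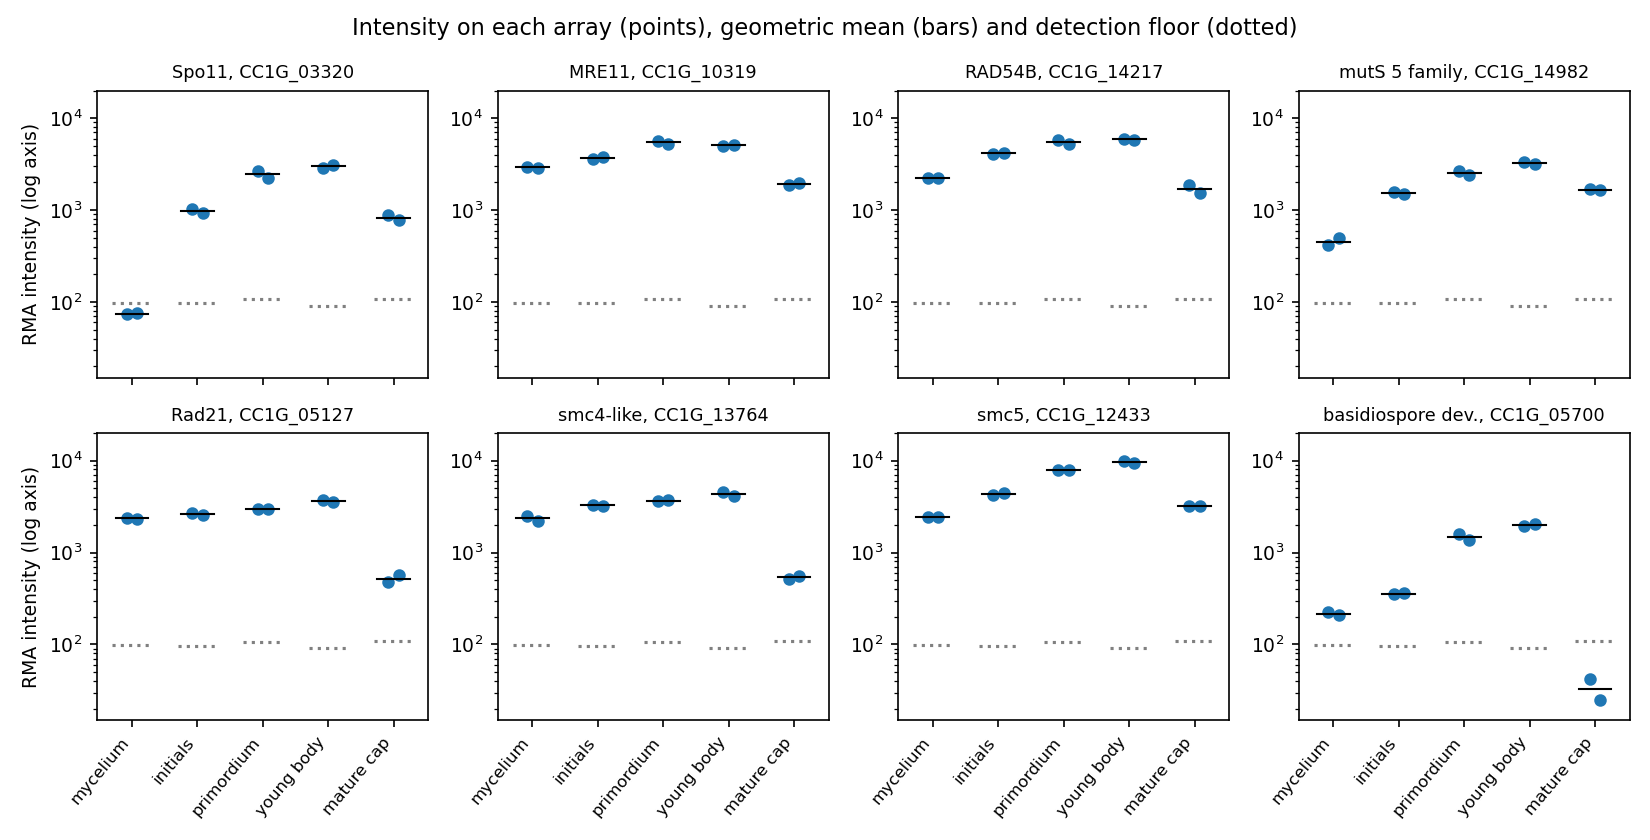
RMA intensity (log axis) of 8 of the genes on each array by stage; points are the 2 arrays, bars their geometric mean, and dotted lines the detection floor (mean of the stage's arrays). Spo11 starts under the floor in mycelium and the basidiospore development protein ends under it in the cap. The means of Rad21 and smc4-like rise from mycelium to the young body and are below mycelium in the cap.

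Members of the MutS family took several courses. Msh5 (CC1G_14981), which in yeast acts with Msh4 in meiotic crossing over and has no part in mismatch repair, and the mutS 5 family protein (CC1G_14982) are direct neighbours in the RefSeq annotation of assembly CC3. Their names are alike and both are counted as separate genes, but whether they are parts of a single gene was not tested. For the mutS 5 family protein the arrays read 414 and 498 in mycelium, 1558 and 1508 in initials, 2682 and 2392 in primordia, 3327 and 3152 in young fruiting bodies and 1699 and 1642 in mature caps. Mycelium was lowest and young bodies highest, and no stage overlapped another, although caps and initials lay close. It rose by 1.76 ± 0.0937 into initials (adjusted p = 3.60e-06) and 0.72 ± 0.0937 into primordia, and fell by 0.95 ± 0.0937 into caps, where it was 1.88 ± 0.0937 above mycelium. The stage means of its neighbour Msh5 had the same order: 198 and 208 in mycelium, 339 and 317 in initials, 519.9 and 435 in primordia, 506 and 480.5 in young fruiting bodies and 353 and 387 in mature caps. It changed by 0.69 ± 0.0918 into initials, 0.54 ± 0.0918 into primordia (lost with averaged pairs) and -0.42 ± 0.0918 into caps, the last lost on probe block 2 alone, with quantile normalization and with averaged pairs.

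Of the 6 genes of the family 5 fell in the cap and 1 rose, against 40.7% and 38.3% of all genes. The protein msh6 (CC1G_07657), a subunit of a mismatch sensor, had stage means between 4517 units in initials and 8264 in young bodies. It rose by 0.61 ± 0.0458 into primordia but fell by 0.72 ± 0.0458 into caps, which differed from mycelium by -0.02 ± 0.0458 (adjusted p = 0.663), not a pass. MSH3 (CC1G_03897), part of a sensor of larger loops, moved most into initials, by 0.38 ± 0.0229, among the 4 steps. The MutS2 protein (CC1G_03702) moved little before it fell by 1.03 ± 0.0464 into caps: 3346 and 3199 in mycelium, 3147 and 3198 in initials, 3712 and 3523 in primordia, 4177 and 4192 in young fruiting bodies and 1971 and 2122 in mature caps.

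Cohesin genes changed by less than 2-fold at each step before the cap and fell in the cap. At those steps, the largest change that passed among the 6 was 0.36 ± 0.0556, for Rad9 into primordia (lost with averaged pairs). Of all genes, 9.01% rose and 10.9% fell by at least 2-fold into initials. Into primordia these shares were 2.23% and 1.72%, and into young bodies 2.58% and 1.99%, so 0 of 6 is near the shares of all genes. Young bodies were not tested against mycelium. At the last step all 6 fell (40.7% of all genes did), with changes from -2.80 ± 0.0799 to -0.18 ± 0.0556. The kleisin Rad21 closes the cohesin ring, and the array carries a pair of genes with that product. For CC1G_05127 the arrays read 2376 and 2317 in mycelium, 2661 and 2532 in initials, 2943 and 2961 in primordia, 3691 and 3542 in young fruiting bodies and 473 and 566 in mature caps. Its cap arrays were below every other array, by -2.80 ± 0.0799 against young bodies (adjusted p = 1.19e-07) and -2.18 ± 0.0799 against mycelium. The other Rad21 gene (CC1G_03652) changed by only -0.27 ± 0.0409 at that step and had its highest mean in initials, 8741 units. Probes of genes with the same product can share signal, which was not tested.

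The cohesin ATPase psm1 (CC1G_10710), the Smc1 of fission yeast, read 6111 and 6389 in mycelium, 6567 and 6656 in initials, 8132 and 8001 in primordia, 7343 and 7408 in young fruiting bodies and 2039.6 and 2235 in mature caps. The caps stood alone at the bottom, -1.79 ± 0.0470 against young bodies and -1.55 ± 0.0470 against mycelium. A gene listed as cohesin subunit (CC1G_06918) likewise fell by 1.26 ± 0.0525, from 5404 and 5040.4 in mycelium, 5916 and 5621 in initials, 6130.2 and 5883 in primordia, 5611 and 5530.0 in young fruiting bodies and 2408 and 2245 in mature caps. Pds5 (CC1G_05280), which regulates the binding of cohesin to chromatin, drifted before it fell by 0.92 ± 0.0348: 6773 and 6539 in mycelium, 6331 and 6512 in initials, 6397 and 6125 in primordia, 5822 and 5761 in young fruiting bodies and 3016 and 3087 in mature caps. It ended -1.12 ± 0.0348 against mycelium. Rad9 (CC1G_03361), known in this species from a radiation-sensitive mutant with defects in meiotic chromosome synapsis, was the exception among the 6 in ending above mycelium, by 0.57 ± 0.0556, with stage means from 3771 units in mycelium to 6343 in young bodies. Its rises into initials and primordia were lost with averaged pairs. Its fall into caps was lost without replicate 1 or 2 of the young body or replicate 1 of the cap, and with median centring, probe block 2 alone or averaged pairs.

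All 5 condensin genes fell in the cap as well (40.7% of all genes did), 4 of them at least 2-fold (14.8%). The ATPase smc4-like protein (CC1G_13764) had intensities of 2503 and 2205 in mycelium, 3292 and 3205 in initials, 3617 and 3737 in primordia, 4518 and 4147 in young fruiting bodies and 517 and 561 in mature caps. Its stage means rose from 2350 units in mycelium to 4329 in young bodies. The gene was -3.01 ± 0.0746 in caps against young bodies (adjusted p = 6.72e-08) and -2.13 ± 0.0746 against mycelium, and its cap arrays overlapped no others.

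The non-SMC subunits followed. For cnd2 (CC1G_05699), the condensin subunit named in fission yeast, the arrays read 4542 and 4387 in mycelium, 4609 and 5056 in initials, 6416 and 6283 in primordia, 7189 and 7895 in young fruiting bodies and 1118 and 998 in mature caps. Its caps were lowest, -2.83 ± 0.0744 against young bodies (adjusted p = 8.43e-08) and -2.08 ± 0.0744 against mycelium. Cnd3 (CC1G_03558), another fission yeast name, had its highest arrays in initials: 4169.5 and 4177 in mycelium, 4919 and 4792 in initials, 3409.7 and 3533 in primordia, 3949 and 3970.4 in young fruiting bodies and 1090.1 and 1116 in mature caps. It fell by 0.48 ± 0.0299 into primordia and by 1.84 ± 0.0299 into caps. The gene listed only as condensin (CC1G_10717) read 5385 and 5204 in mycelium, 6629.5 and 6624 in initials, 7546 and 7369 in primordia, 7240.4 and 7152 in young fruiting bodies and 1424 and 1428 in mature caps. It fell by 2.34 ± 0.0282 into caps, to -1.89 ± 0.0282 against mycelium. The nuclear condensin complex protein (CC1G_12491) fell by 0.45 ± 0.0392 into initials, rose by 0.50 ± 0.0392 into primordia and fell by 0.90 ± 0.0392 into caps.

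The Smc5-6 complex, a relative of cohesin and condensin that works in repair, was represented by a pair of genes with their highest stage means in young bodies. The ATPase smc5 (CC1G_12433) read 2423 and 2434 in mycelium, 4260.4 and 4425 in initials, 7932 and 7925 in primordia, 9811 and 9506 in young fruiting bodies and 3173 and 3186 in mature caps. No stage overlapped another, and the caps lay between mycelium and initials. It rose by 0.84 ± 0.0297, 0.87 ± 0.0297 and 0.28 ± 0.0297 over the first 3 steps and fell by 1.60 ± 0.0297 into caps (adjusted p = 2.17e-08), where it was still 0.39 ± 0.0297 above mycelium. Its partner Nse4 (CC1G_01911) rose by 0.51 ± 0.0457 into primordia. Young bodies differed from primordia by 0.08 ± 0.0457 (adjusted p = 0.181), which did not pass. Nse4 fell by 0.79 ± 0.0457 into caps, which differed from mycelium by -0.09 ± 0.0457 (adjusted p = 0.116), not a pass.

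**Figure D4:**
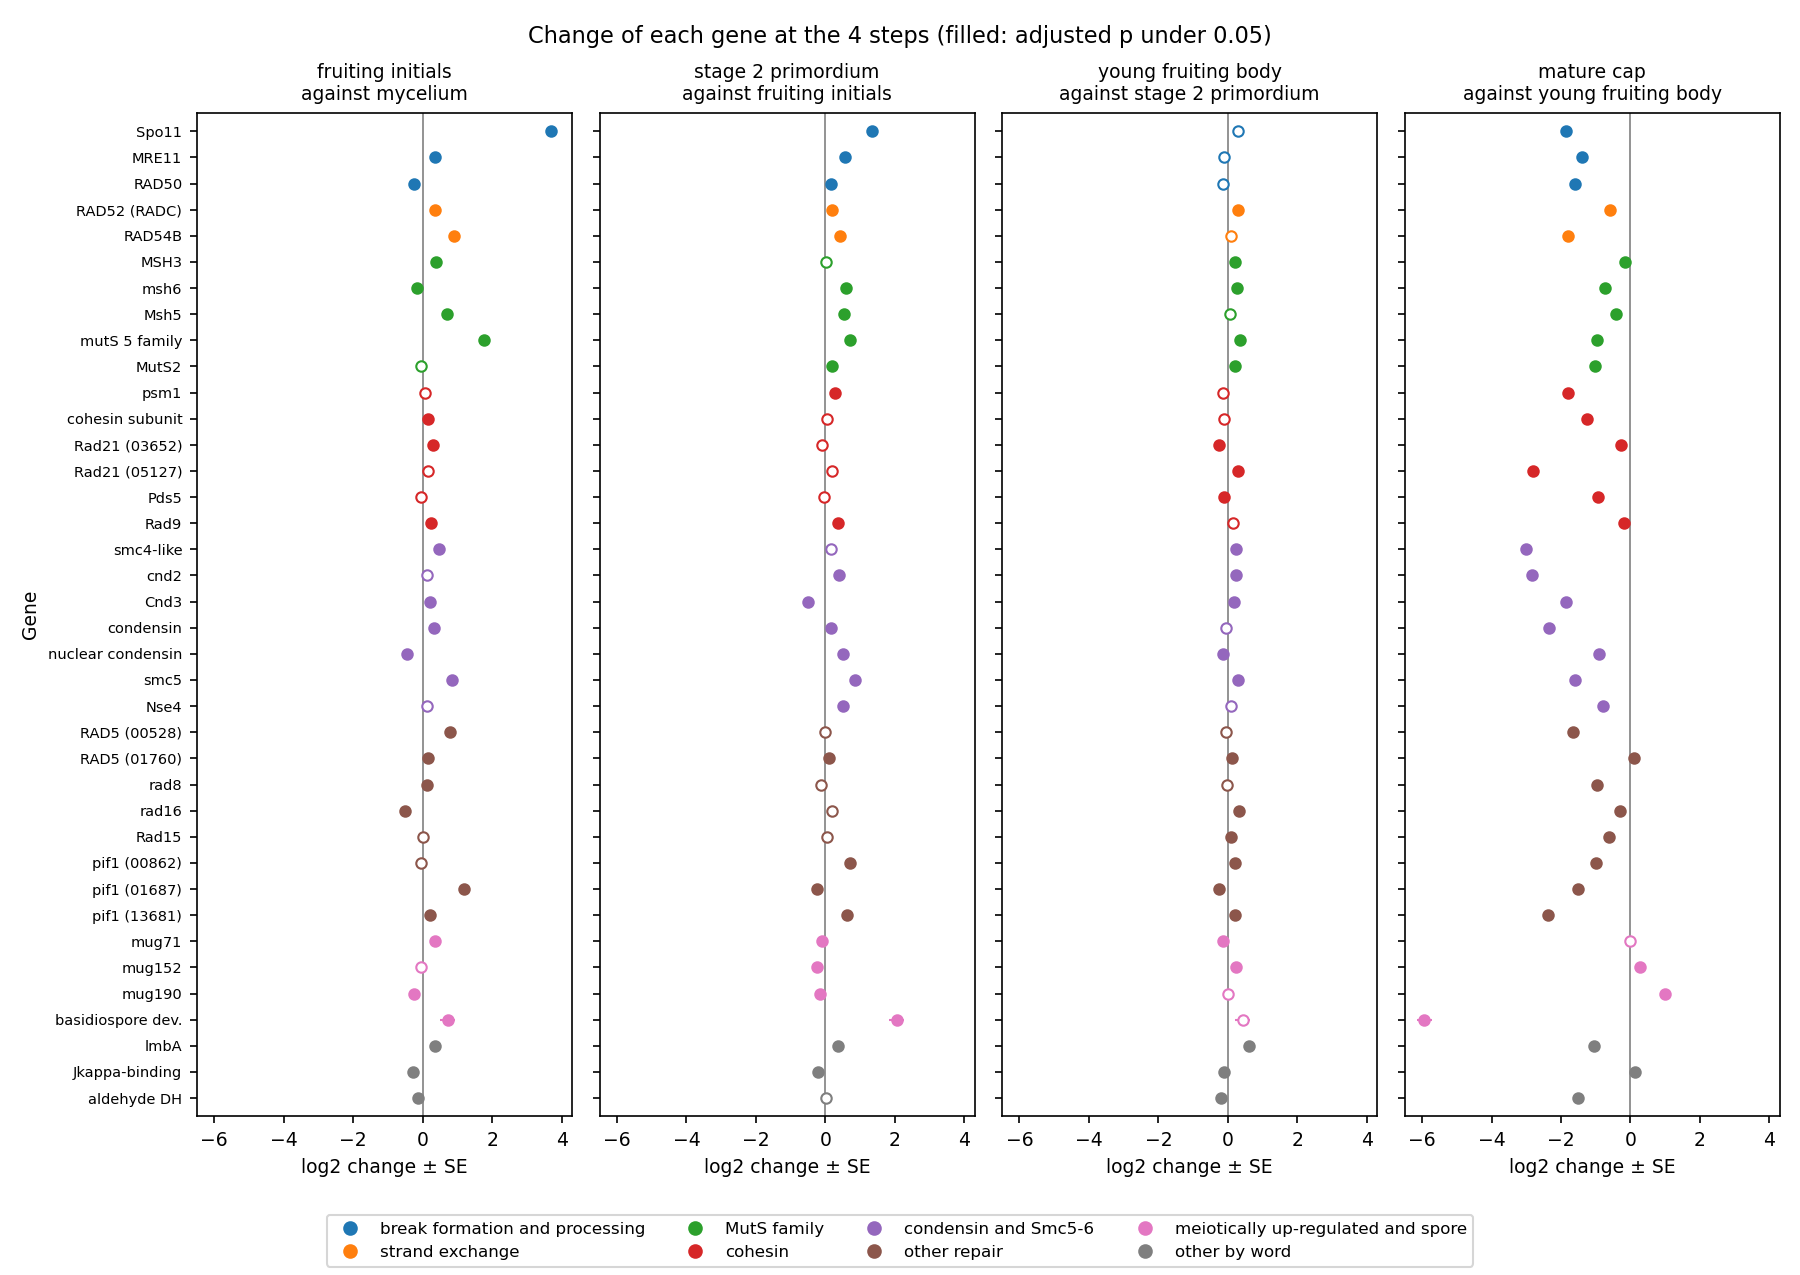
Log2 change ± SE (n = 2 arrays per stage) of 38 of the 42 genes at each of the 4 steps, coloured by role; filled points passed and open points did not. Values of Spo11 against mycelium and of the basidiospore development protein in the cap rest on a stage under the detection floor, and at the last step 33 of the 38 points are filled and left of 0.

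Among the 8 other repair genes, 7 fell in the cap (40.7% of all genes did), 3 of them at least 2-fold (14.8%), and 1 rose (38.3%). The 3 genes with the product pif1, a helicase family that in yeast acts at telomeres and stalled forks, had different courses. CC1G_01687 read 2074 and 2067 in mycelium, 4609 and 4759 in initials, 3915 and 4019 in primordia, 3251 and 3379 in young fruiting bodies and 1223 and 1097 in mature caps. It was highest in initials, after a rise of 1.18 ± 0.0538, and fell by 1.52 ± 0.0538 into caps. Its neighbour in assembly CC3, CC1G_13681, read 2809.8 and 2745 in mycelium, 3189 and 3209 in initials, 5129.6 and 4736 in primordia, 5699.7 and 5647 in young fruiting bodies and 1129.7 and 1055 in mature caps. It was highest in young bodies, after 0.62 ± 0.0485 into primordia, and fell by 2.38 ± 0.0485 into caps (adjusted p = 3.06e-08). The third, CC1G_00862, rose by 0.72 ± 0.0460 into primordia and fell by 0.99 ± 0.0460, and caps differed from mycelium by -0.08 ± 0.0460 (adjusted p = 0.130), not a pass.

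The pair of RAD5 genes, named for a yeast protein of DNA damage tolerance, read differently at the last step. CC1G_00528 read 1862 and 1848 in mycelium, 3169 and 3275 in initials, 3194.58 and 3193.98 in primordia, 3027 and 3113 in young fruiting bodies and 960.3 and 981 in mature caps. It was level from initials to young bodies and fell by 1.66 ± 0.0296 into caps. CC1G_01760 was 0.11 ± 0.0304 at that step, a call lost on probe block 1 alone, with the 2 stages fitted alone, without replicate 1 of the young body, without replicate 1 of the cap and with averaged pairs. Its 0.48 ± 0.0304 against mycelium kept its call. The product rad8 (CC1G_00872) fell by 0.95 ± 0.0390 into caps, and Rad15 (CC1G_04251), in fission yeast a helicase of the transcription and repair factor TFIIH, by 0.61 ± 0.0277. The product rad16 (CC1G_09941) was lowest in initials, at -0.52 ± 0.0743 against mycelium.

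The gene listed as basidiospore development protein (CC1G_05700), next to cnd2 in assembly CC3, had the deepest fall of the 42. Its intensity was 226 and 207 in mycelium, 351 and 363 in initials, 1594 and 1375 in primordia, 1952 and 2024 in young fruiting bodies and 42.1 and 25.1 in mature caps. Primordia and young bodies were highest and both cap arrays were under the floor and differed from each other by 0.75 on the log2 scale, the widest gap between replicates of any of the 42 genes. It rose by 2.05 ± 0.219 into primordia (adjusted p = 0.000460). Caps were at least 18.3-fold lower than young bodies (adjusted p = 3.78e-07) and at least 1.99-fold lower than mycelium. The difference into initials, 0.72 ± 0.219, lost its call without any 1 of the 4 arrays compared, on probe block 1 alone and with averaged pairs. Between primordia and young bodies the difference was 0.43 ± 0.219 (adjusted p = 0.152), which did not pass.

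The 3 genes named after meiotically up-regulated genes of fission yeast did not share that course. That for mug190 (CC1G_13624) read 7108 and 7283 in mycelium, 6001 and 6177 in initials, 5378 and 5612 in primordia, 5481 and 5437 in young fruiting bodies and 10926 and 10966 in mature caps. Its cap arrays were above all others, after a rise of 1.00 ± 0.0319 (adjusted p = 1.94e-07), and primordia and young bodies were lowest. The gene for mug152 (CC1G_02158) was also highest in caps, at 0.28 ± 0.0441 against young bodies. The gene for mug71 (CC1G_00411) was highest in initials, at 0.34 ± 0.0333 against mycelium, and its last step, -0.02 ± 0.0333 (adjusted p = 0.623), did not pass.

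Of the 3 genes set apart as caught by a word, the lincomycin-condensing protein lmbA (CC1G_01714) read 2267 and 2277 in mycelium, 2911 and 2947 in initials, 3959 and 3639.9 in primordia, 5942 and 5720.1 in young fruiting bodies and 2822 and 2809 in mature caps. It was highest in young bodies, after 0.62 ± 0.0433, and fell by 1.05 ± 0.0433 into caps. The aldehyde dehydrogenase (CC1G_03873) fell by 1.51 ± 0.0404 into caps: 11866 and 12068 in mycelium, 10917 and 10838 in initials, 10866 and 11192 in primordia, 9631 and 9646 in young fruiting bodies and 3249 and 3509.7 in mature caps. The Jkappa-binding protein (CC1G_03194) was highest in mycelium and fell by 0.26 ± 0.0364 into initials. Without these 3, young bodies held the highest mean of 20 of 39 genes (51.3%) and mature caps the lowest of 22 (56.4%).

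Other genes of recombination, replication and chromosome segregation were taken by product words in the same way. Rexo1 and HSPC177 came in by their letters alone, and the 3 topoisomerase II genes stand in both the recombination and the segregation list. The replication list took in every product with the words DNA polymerase, also lambda, mu, eta, theta/eta, IV and gamma, whatever their role. Of 24 further recombination and repair genes, 14 rose and 0 fell into initials, 58.3% and 0.0% against 37.5% and 33.7% of all genes. Into primordia 5 rose and 4 fell, 20.8% and 16.7% against 23.5% and 24.5%, and into young bodies 7 rose and 6 fell, 29.2% and 25.0% against 24.0% and 24.8%; these shares are near those of all genes. Into caps 3 rose and 17 fell, 12.5% and 70.8% against 38.3% and 40.7%, with a median of -0.51. MER3 (CC1G_01117), in yeast a helicase of meiotic crossing over, rose by 1.55 ± 0.0373 into initials and 0.77 ± 0.0373 into primordia, and fell by 1.94 ± 0.0373 into caps. A DNA ligase (CC1G_07933) fell by 2.96 ± 0.0622 at the last step, while an ATP dependent DNA ligase (CC1G_00680) rose by 1.93 ± 0.0285.

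Of 26 genes on the replication list, 10 rose and 4 fell into initials, 38.5% and 15.4% against the same 37.5% and 33.7% of all genes. Into primordia 11 rose and 4 fell (42.3% and 15.4%), and into young bodies 10 rose and 3 fell (38.5% and 11.5%), where all genes had 23.5% and 24.5% and then 24.0% and 24.8%. Into caps 3 rose and 21 fell, 11.5% and 80.8% against 38.3% and 40.7%, with a median of -0.95. PCNA (CC1G_05633), the sliding clamp of the replication fork, fell by 3.48 ± 0.0700, and of a pair of genes listed as ribonucleotide reductase small subunit, part of the enzyme that makes deoxynucleotides, CC1G_00200 rose by 1.64 ± 0.0799 while CC1G_00201 fell by 2.06 ± 0.0614. Of 12 segregation genes, 6 rose and 1 fell into initials, 50.0% and 8.33% against 37.5% and 33.7% of all genes. Into primordia 3 rose and 3 fell (25.0% each) and into young bodies 2 rose and 3 fell (16.7% and 25.0%), near the shares of all genes, and into caps 2 rose and 9 fell, 16.7% and 75.0% against 38.3% and 40.7%, with a median of -0.23. Of the 3 genes for topoisomerase II, which untangles DNA, CC1G_12208 fell by 1.92 ± 0.0519 and CC1G_03723 by 1.51 ± 0.0278, and CC1G_12048 differed by -0.07 ± 0.0282 (adjusted p = 0.0707), which did not pass. The gene for centromere binding protein B (CC1G_03464) rose by 1.35 ± 0.0408. Whether these lists differ from the 42 genes was not tested.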

How the data were processed

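Total RNA of 10 samples, 2 for each of 5 stages, was measured on one-colour NimbleGen arrays with up to 5 probes per gene in each of 2 blocks. The deposited values are linear intensities per gene and block, which the names of the authors' files give as robust multi-array averages (RMA). Neither the RMA settings nor the genome build of the probes is given in the sources used here. Both blocks were averaged on the log2 scale, and the authors' deposited series table of 13304 genes equalled that geometric mean within 4.98e-08%. The floor was 4 times the level of the 7613 random-sequence control probes of each array. A linear model with stage as its only term was fitted to all 10 arrays and 13320 genes (limma 3.58.1 in R 4.3.3, lmFit and eBayes, 5 residual degrees of freedom), with Benjamini-Hochberg adjustment over all genes and a threshold of 0.05. The script was tested on simulated data with known changes. The number of arrays, 2 per stage, limits the precision.

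Genes that passed with at least a 2-fold change and arrays that did not overlap in any of the 5 comparisons (25 of 42) are given on every array, and the others by changes, stage means and counts, except that 4 of the 42 genes are not reported singly here; of each further list at most 2 rises and 2 falls per comparison could be named. CC1G_00201 and, at the last step, CC1G_12048 fall outside this rule and were named after their values were seen, because they share a product with a named gene. The members and lists were chosen with earlier results of these data known. Gene positions next to each other were looked up in the RefSeq annotation of assembly CC3, which held all 42 genes. Replicate numbers were not taken as pairs. Alternatives were single probe blocks, quantile normalization, median centring, an offset of 50, a filter on dim genes, an intensity trend, the authors' series table, fits of the compared stages alone, a replicate block, leaving out each array, and, added after seeing the data, averaged pairs and the list without 3 genes caught by a word. No sequences are shown.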

Additional observations from a re-analysis of the deposited data

How the results depend on the processing

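Of 210 changes (42 genes in 5 comparisons), 169 passed, but calls were common among all genes too. Of all genes, 37.5% rose and 33.7% fell into initials, 23.5% and 24.5% into primordia, and 24.0% and 24.8% into young bodies. These shares were 38.3% and 40.7% from young bodies to caps, and 40.7% and 40.0% from mycelium to caps. The series table, the dim-gene filter, the intensity trend and the offset of 50 left all 169 calls in place. Calls lost numbered 2 with quantile normalization, 3 with median centring, 11 on probe block 1 and 14 on probe block 2, where 1 more, RAD5 (CC1G_01760) from primordia to young bodies, reversed from 0.11 to -0.0112. Fitting only the compared stages lost 16 calls. Averaged pairs, chosen after seeing the data, lost 58: falls into initials were then 5, into primordia 13 genes rose and 1 fell, into young bodies 4 rose and 0 fell, and 12 rose into primordia and fell into caps. Falls into young bodies were 3 on probe block 2 (21.5% of all genes) and 4 with the compared stages alone (22.0%). The median change from young bodies to caps was -0.95 with quantile normalization (-0.9488) and with median centring (-0.9451). From mycelium to caps it was -0.31 on block 1, -0.39 on block 2, -0.29 with quantile normalization, and -0.32 both with median centring and without the 3 genes caught by a word.

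In each of the 5 comparisons, the shares of all genes that rose and that fell were lower with any 1 compared array left out. The shares were lower with averaged pairs as well. Lower counts of the 42 genes in these settings therefore do not by themselves show a change particular to those genes. Leaving out 1 array at a time gave these ranges for the 42 genes. Into initials, 21 to 22 genes were higher and 7 to 8 lower, with medians of 0.16 to 0.21. Into primordia, 20 to 23 were higher and 3 to 7 lower, with medians of 0.19 to 0.21. Into young bodies, 12 to 15 were higher and 3 to 7 lower, with medians of 0.12 to 0.17. From young bodies to caps, 5 were higher and 34 to 35 lower, with medians of -1.01 to -0.98. From mycelium to caps, 15 to 16 were higher and 23 to 24 lower, with medians of -0.43 (without replicate 1 of the cap) to -0.27 (without replicate 2). The number that rose into primordia and fell into caps was 19 to 24. The deviations of same-numbered arrays correlated by over 0.1 in 8 of 10 pairs of stages, at up to 0.50, and by -0.01 and -0.02 in the other two; the labels give no pairing, and the numbers were not taken as pairs because not all 10 were over 0.1. With a replicate block 2 of the 169 calls were lost. The number that rose into primordia and fell into caps then stayed at 22 (13.6% of all genes). Fitting the compared stages alone gives no value for it.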
